A study of Mus musculus with 8 samples.

Results

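Of the Six- and Eya-family genes, *Six2*, *Six4*, *Six5*, *Eya1*, *Eya2*, *Eya3* and *Eya4* are described here. They were taken by their symbols, and all 7 were found among the 28001 identifiers that each library counts. Their unique molecular identifiers (UMIs, each tagging 1 captured transcript) were read in every cell with at least 3000 UMIs and at most 10% mitochondrial UMIs, which left 53085 of the 57469 barcodes.

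Six-family proteins are homeodomain transcription factors, and Eya-family proteins are coactivators that carry a phosphatase domain and bind DNA only through a partner such as a Six-family protein. In the textbook network, Pax factors act upstream, Dach proteins can bind in the same complexes, and Groucho (Tle) proteins serve Six-family factors as corepressors. In the limb the network is best known for bringing muscle precursors from the somite into the limb bud and for switching on the myogenic factors there. *Six2* is known as the gene that keeps kidney progenitors undifferentiated, and it is also expressed in developing skeletal and tendon tissue. *Six5* lies next to *Dmpk*, the myotonic dystrophy gene, and changes in *EYA1* cause branchio-oto-renal syndrome in people.

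On the mouse build GRCm38, *Six2* (ENSMUSG00000024134) lies on the minus strand at chr17:85684277-85688274, *Six4* (ENSMUSG00000034460) on the minus strand at chr12:73099609-73113456 and *Six5* (ENSMUSG00000040841) on the plus strand at chr7:19094594-19098549. *Eya1* (ENSMUSG00000025932) lies on the minus strand at chr1:14168954-14310235, *Eya2* (ENSMUSG00000017897) on the plus strand at chr2:165595032-165771727, *Eya3* (ENSMUSG00000028886) on the plus strand at chr4:132638987-132724765 and *Eya4* (ENSMUSG00000010461) on the minus strand at chr10:23102963-23350786. The annotation places another gene inside the span of *Eya1* (*Gm22616*, *Gm37444*), *Eya2* (*Gm28163*, *Gm11460*) and *Eya4* (*Gm24655*), and of these only *Gm37444* and *Gm24655* lie on the strand of their host, so reads of that strand within the shared part cannot be told apart.

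The cells came from forelimbs of Hic1CreERT2/CreERT2;Rosa26LSLtdTomato/tdTomato embryos on a C57BL/6J background, in which Cre is expressed from the *Hic1* locus. Dams of more than 7 weeks had received 7.5 mg of tamoxifen by gavage at E10, so the tdTomato label marks cells, and the progeny of cells, that had *Hic1* on around that day, and both *Hic1* alleles carry the insertion in every sorted group. Limb pairs were pooled and tdTomato+ cells outside the blood and endothelial gates were sorted at E11.5, E12.5, E13.5 and E14.5, and at E16.5 separately from a proximal segment (distal stylopod, proximal zeugopod and the elbow) and a distal segment (distal zeugopod and autopod), with 1 library each. Another 2 libraries, replicates by their labels, held cells of whole E11.5 limbs that were negative for the blood and endothelial lineage markers and not divided by tdTomato, labelled as tdTomato+ and tdTomato− together. Nothing in the labels says whether these replicates came from separate litters.

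The libraries kept between 3165 and 11109 cells and between 31500092 and 234893903 UMIs, at a median of 6788 to 18473 UMIs per cell, and any pair of libraries shared at most 48 barcodes. Levels are given as CPM, the UMIs of a gene in every 1000000 UMIs summed. *Hic1* ran from 22.0 to 38.0 CPM among sorted libraries, while the whole-limb pair had 0.702 and 0.741 CPM. For tdTomato the range was 427 to 1341 CPM, against 3.88 and 4.21 CPM. By transcript, labelled cells were thus a small part at most of the whole-limb libraries, which are grouped below by their labels. The chemistry used through E13.5 was an earlier one than that of E14.5 and E16.5, and the distal library was counted with a later software version than the proximal one, so stage and chemistry, and segment and version, cannot be told apart across those steps. All members were sparse: *Six4* at E11.5 was seen in 41.7% of cells (18.8% once every cell was thinned to 3000 UMIs), and *Eya1* in the same library in 0.474% (0.221% when thinned).

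The question of the time course was how each gene moved in labelled cells as the limb matured. The genes divided by direction rather than by family: *Six2* and *Eya1* were higher in the E16.5 proximal library than at E11.5, *Six4*, *Six5*, *Eya3* and *Eya4* were lower, and *Eya2* was at nearly the same level in these 2 libraries. The earlier libraries came from limbs not cut into segments, so stage and segment cannot be told apart over the last step. In the E16.5 distal library *Eya2* stood at 4.25 CPM, against 11.6 CPM at E11.5, and *Six5* at 9.96 CPM against 13.6 CPM. A gene is called higher or lower here where it reached 1 CPM in either library, the ratio was 2-fold or more and the 95% exact conditional interval of the ratio excluded 1. That interval covers counting error only, since each stage has 1 library and no replicate. Of 13681 genes at 1 CPM or more, 17.9% were called higher and 29.3% lower over the same interval. The median log2 ratio of the members was −1.08 and that of all those genes −0.43, and with trimmed-mean scaling, which shifted every log2 ratio up by 0.42, *Six5* fell short of 2-fold. It also did so without epithelial-like cells (log2 −0.88), without epithelial- and chondrocyte-like cells (−0.92) and with every cell thinned to 3000 UMIs (−0.90), which left 3 members lower.

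*Six2* rose and then fell. Its level in the sorted libraries was 1.94 CPM at E11.5, 13 CPM at E12.5, 31.4 CPM at E13.5, 31.9 CPM at E14.5, 10.3 CPM in the E16.5 proximal library and 4.36 CPM in the distal one. Each of these levels stood apart from its neighbours in time by its 95% Poisson interval except those of E13.5 (29.8 to 33.1 CPM) and E14.5 (31.0 to 32.9 CPM). The step from E11.5 to E12.5 was 6.69-fold (95% interval 5.13 to 8.86), a step at which 5.11% of genes were called higher and 2.64% lower. The next step was 2.43-fold (2.20 to 2.68), where 5.09% of genes were higher and 2.5% lower. From E14.5 to the E16.5 proximal library *Six2* fell 3.11-fold (2.96 to 3.27, against 10.5% of genes lower and 9.39% higher).

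*Six4*, a factor that acts in muscle precursors, was the most abundant member at E11.5 and fell with each step through the E16.5 proximal library. It stood at 67.9 CPM at E11.5, 41.5 CPM at E12.5, 22.3 CPM at E13.5, 12.1 CPM at E14.5, 7.33 CPM in the E16.5 proximal library and 12.4 CPM in the distal one. No single step reached 2-fold, the steps being 1.64-, 1.86-, 1.83- and 1.66-fold, and together they amounted to a level 9.26-fold lower (8.69 to 9.88). Within the 3 libraries of the earlier chemistry it fell 3.05-fold (2.83 to 3.29) from E11.5 to E13.5, where 4.91% of genes were called lower and 10.3% higher. *Six5* was level at 12.7 to 14.9 CPM from E11.5 to E14.5, with all of its change at the last step, to 6.41 CPM proximally (2.33-fold lower, 2.17 to 2.49) and 9.96 CPM distally.

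Among the Eya-family genes *Eya1*, the rarest member in 4 of the 6 sorted libraries, was counted 20 times at E11.5 (0.635 CPM) and 52 times at E12.5 (1.18 CPM). It then reached 3.15 CPM at E13.5, a step of 2.68-fold (1.94 to 3.75), 2.31 CPM at E14.5, 1.34 CPM in the E16.5 proximal and 3.33 CPM in the distal library. *Eya2*, which can act with Six-family factors in muscle precursors, lay at 11.6, 19.3, 16.3, 23.6 and 11.1 CPM through the E16.5 proximal library, with its peak at E14.5, and at 4.25 CPM distally. The ratio of *Eya2* at E16.5 proximal to E11.5 was 0.95 (0.85 to 1.07), and its fall after E14.5 was 2.13-fold (2.02 to 2.24). *Eya3* declined in every step, from 17.2 CPM through 14.1, 12.6 and 8.93 CPM to 5.41 CPM proximally (3.19-fold lower in all, 2.88 to 3.53), and stood at 6.93 CPM distally. *Eya4*, a gene of inherited deafness and heart muscle disease in people, was at 6.67, 5.29 and 5.64 CPM up to E13.5 and then dropped 2.59-fold (2.18 to 3.07, against 8.34% of genes lower and 6.89% higher) to 2.18 CPM at E14.5, followed by 1.94 CPM proximally and 3.07 CPM distally. That drop coincided with the change of chemistry, whose part in it was not tested.

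**Figure D1:**
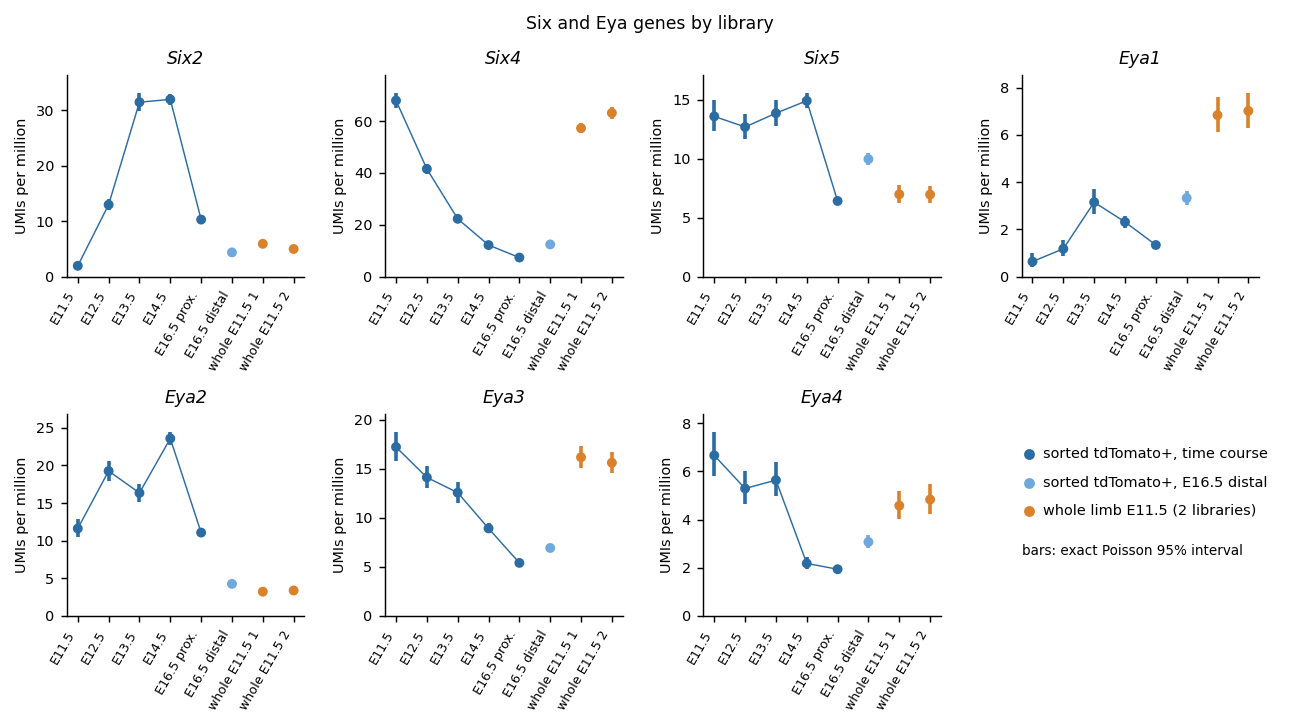
Level of each Six- and Eya-family gene in the 8 libraries, in CPM on axes that start at 0, with 95% exact Poisson intervals that cover counting error only. *Six2* climbed from 1.94 CPM at E11.5 to 31.9 CPM at E14.5, while *Six4* descended from 67.9 to 12.1 CPM over the same libraries.

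The rise of *Six2* was carried by a part of the cells. Cells were clustered on 2000 variable genes. A cluster was called by a cell type, with the ending -like, where enough markers of that type led it. Levels by cluster are given as descriptions without a test. At E11.5 the labelled cells were nearly all early progenitor-like (1874 cells) or mitotic-like (1282 cells), and *Six2* was at 2.17 and 1.65 CPM in them. At E12.5 a perichondrial-like group of 642 cells, marked by *Sox5* and *Sox6*, appeared with *Six2* at 50.4 CPM (44.2 to 57.1), against 16.5 CPM in mitotic-like, 5.88 CPM in unnamed and 3.94 CPM in early progenitor-like cells. The study reports chondroprogenitors from E12.5, and whether this perichondrial-like group holds such cells was not tested. The E16.5 class of the same name, described below, came from a separate clustering. At E13.5 the perichondrial-like cells were at 94.9 CPM (88.5 to 102), mitotic-like cells at 40.6 CPM and the unnamed clusters together at 5.32 CPM.

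In the same perichondrial-like cells *Eya4* also had its highest level at both stages, and *Six4* at E12.5. *Eya4* stood at 10.2 CPM there at E12.5 against 3.08 to 5.51 CPM in the other classes, and at 9.94 CPM at E13.5 against 4.47 CPM in mitotic-like and 4.63 CPM in unnamed cells, while the 7.77 CPM of the few early progenitor-like cells left did not differ beyond counting error. *Six4* was at 58.2 CPM in E12.5 perichondrial-like cells against 38.1 to 40.8 CPM elsewhere, and at 23.2 CPM at E13.5 against 20.1 CPM in mitotic-like and 22.4 CPM in unnamed cells. The 69 early progenitor-like cells left at E13.5 had the highest *Six4* of that library, 52.4 CPM on 27 UMIs. *Eya2* had another order, with 14.7 CPM in E12.5 and 11.3 CPM in E13.5 perichondrial-like cells, the lowest of the classes of at least 100 cells in either library, and 29.9 CPM in the unnamed E12.5 clusters. *Eya3* and *Six5* differed little, from 12.8 to 15.8 CPM and from 11.6 to 15.9 CPM between the classes of E12.5.

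At E14.5 *Six2* had its highest level in an unnamed cluster of 2026 cells of that library that *Pcp4*, *Six2* itself, *Mia* and *Otor* led, at 76.9 CPM. *Eya2* was at 49.8 CPM in the same cluster, *Six4* at 17.7 CPM, *Eya1* at 4.87 CPM and *Eya4* at 3.61 CPM. Mitotic-like cells had 50.4 CPM of *Six2* and 34.1 CPM of *Eya2*, and distal limb mesenchyme-like cells, which carry *Hoxa13* and *Hoxd13*, had 22.1 and 19.4 CPM. The dermal fibroblast-like cells stood at the other end with 1.95 CPM of *Six2*, 2.09 CPM of *Six4*, 2.04 CPM of *Eya2* and 0.651 CPM of *Eya4*, and with no UMI of *Eya1*, which allows up to 0.171 CPM (upper bound of the 95% Poisson interval). *Six5* at 15.3 CPM and *Eya3* at 9.76 CPM were as high in the dermal fibroblast-like cells as in the rest of the library (14.9 and 8.93 CPM overall). The dermal fibroblast-like cells of E14.5 thus held *Six5* and *Eya3* and little of the other members. The 65 epithelial-like cells differed from them, with 12.4 CPM of *Six4* but 3.45 CPM of *Six5*, 0.690 CPM of *Eya2* and no UMI of *Eya1* or *Eya4*, which allows up to 2.54 CPM.

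**Figure D2:**
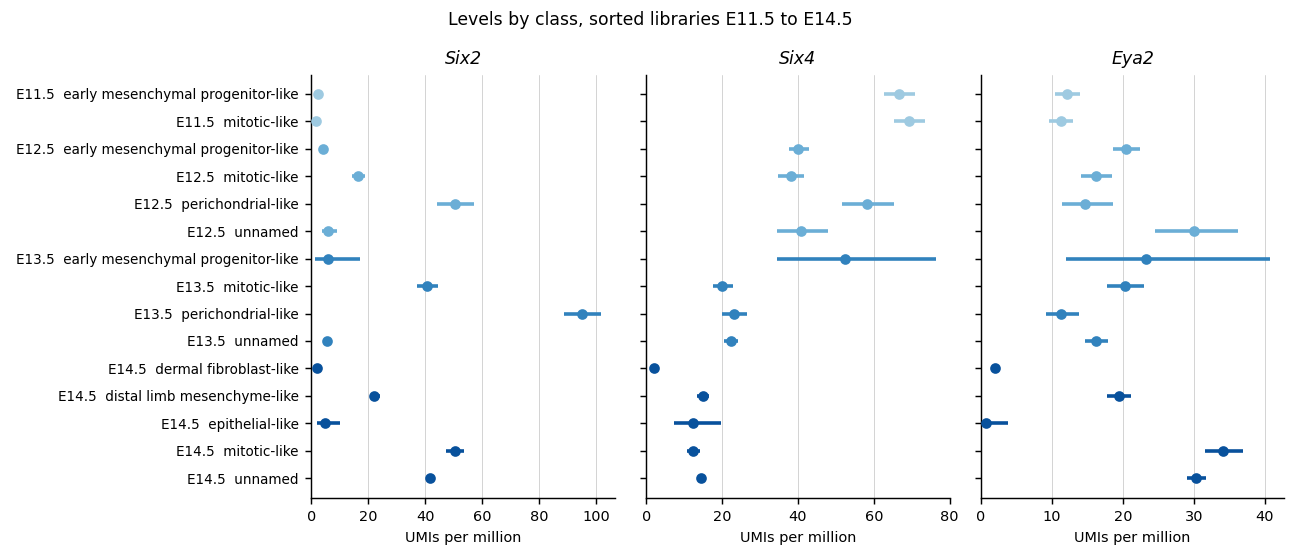
*Six2*, *Six4* and *Eya2* in CPM by cell class from E11.5 to E14.5, each point 1 class of 1 library with its 95% Poisson interval. *Six2* reached 50.4 and 94.9 CPM in perichondrial-like cells of E12.5 and E13.5, and all 3 genes were near 2 CPM in the dermal fibroblast-like cells of E14.5.

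The E11.5 libraries allowed the one comparison with replicates, on the whole-limb side only: labelled mesenchymal cells against those of the whole limb. Sorted and unsorted cells were in different libraries, and the whole-limb headers name no software version, so sorting and processing cannot be told apart. Myogenic-like, endothelial-like and other non-mesenchymal clusters were left out, and UMIs were summed over 3156 sorted cells and over 5082 and 5331 whole-limb cells. The sorted side is 1 library, so edgeR's quasi-likelihood test has 1 residual degree of freedom and takes that library to vary as the whole-limb pair does. Its p-values rest on the spread of that pair alone, which may be technical. The fit pooled this spread over genes: its median prior degrees of freedom were infinite, so a typical gene's own spread had no weight. After Benjamini-Hochberg adjustment over 15015 genes, 26.8% of genes were called higher and 26.6% lower in sorted cells, and of the members 3 were called higher (*Eya2*, *Six5*, *Eya4*) and 2 lower (*Eya1*, *Six2*).

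*Eya2* showed the widest separation, with 11.4 CPM in the sorted library and 0.964 and 0.955 CPM in the whole-limb libraries. Its log2 difference was 3.38 (SE 0.208, adjusted p = 5.45e-57), a 10.4-fold higher level in sorted cells, and 1.65 on the log2 scale with all cells, muscle included. *Six5* stood at 13.7 CPM against 7.14 and 7.21 CPM (log2 0.75, SE 0.148, adjusted p = 2.38e-06). *Eya4* was at 6.64 CPM against 3.99 and 4.18 CPM, with a log2 difference of 0.52 (SE 0.188, adjusted p = 0.0130). The *Eya4* call did not hold once cells with a *Hoxa13* or *Hoxd13* UMI, which lie distally in the limb, were left out (log2 0.03, adjusted p = 0.921).

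*Eya1* was the member most reduced in sorted cells, at 0.351 CPM against 1.80 and 2.06 CPM. The difference of −2.63 (SE 0.397, adjusted p = 3.54e-10) on the log2 scale made it 6.18-fold lower, and in all cells it was −3.61. *Six2* was at 1.88 CPM against 2.70 and 2.42 CPM (log2 −0.62, SE 0.260, adjusted p = 0.0335), a call lost under DESeq2 (adjusted p = 0.294). *Six4* at 67.8 CPM against 56.7 and 62.4 CPM (log2 0.00, SE 0.100, adjusted p = 0.974) and *Eya3* at 17.2 CPM against 16 and 15.6 CPM (log2 −0.06, SE 0.129, adjusted p = 0.725) were not called. The *Six2* difference was wider without *Hoxa13* and *Hoxd13* cells (log2 −0.91, adjusted p = 0.00234) and in all cells, muscle included (−1.66, adjusted p = 3.63e-12). *Eya2* and *Eya1*, of 1 family, differed in opposite directions.

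**Figure D3:**
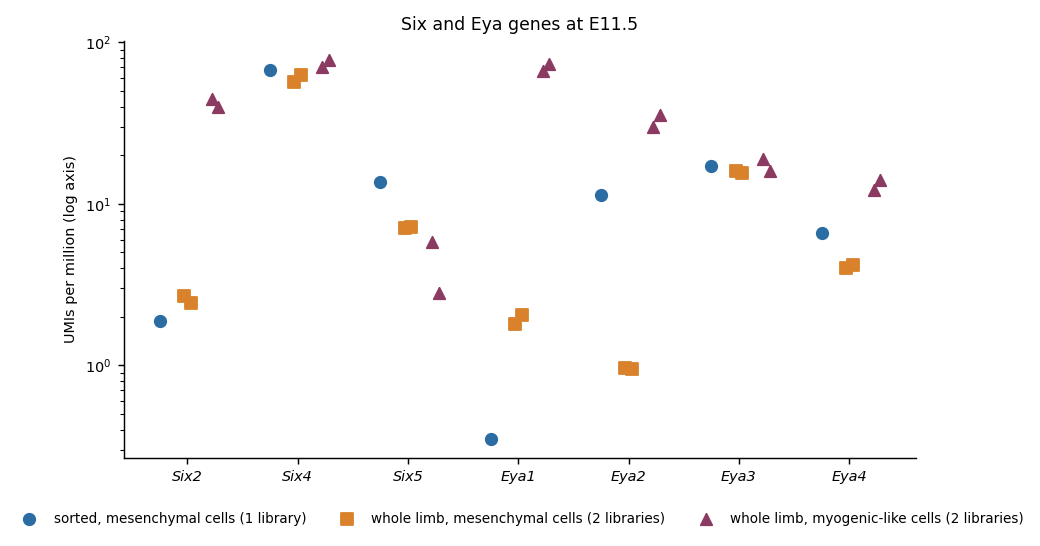
CPM of the members in mesenchymal cells of the sorted E11.5 library and of each whole-limb E11.5 library, on a log axis, each point 1 library, with the myogenic-like cells of the whole limb as triangles. The whole-limb mesenchymal pair lies close together for each gene, with *Eya2* far above it in sorted cells (11.4 CPM) and *Eya1* below it (0.351 CPM).

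The muscle precursors of the whole limb were where *Eya1*, *Eya2* and *Six2* were concentrated. The myogenic-like cluster, led by *Myog*, *Myod1*, *Lbx1*, *Myf5* and *Pax3*, held 310 and 291 cells of the whole-limb libraries and 7.72% and 6.91% of their UMIs, and 74.9% and 71.9% of the UMIs of *Eya1* lay in it. The same shares were 72.1% and 72.8% for *Eya2*, 58.1% and 55.3% for *Six2* and 20.4% and 20.2% for *Eya4*. *Six4* (9.47% and 8.55%) was above the share of all UMIs beyond its 95% interval in both libraries, though by little. *Eya3* had 9.03% and 7.11%, and *Six5* had 6.42% and 2.80%, the latter below the share of all UMIs beyond its interval. In CPM, myogenic-like cells had 66.4 and 73.0 of *Eya1*, 30.0 and 35.5 of *Eya2*, 44.4 and 39.8 of *Six2*, 70.2 and 78.1 of *Six4*, and 12.1 and 14.1 of *Eya4*. No cluster was myogenic-like in the separate clusterings of the time course and of the E16.5 segments. *Myod1* was at 0.794 CPM or lower in each sorted library, and *Pax3* was at 2.25 CPM at E11.5 and at 0.345 CPM or lower later. In the clustering of all E11.5 libraries, leaving out the non-mesenchymal clusters took the sorted library from 3165 to 3156 cells. That step took *Eya1* there from 20 to 11 UMIs, *Myod1* from 25 to 2 and *Pax3* from 71 to 32. *Myog* was at 2.18 CPM in the E16.5 proximal library, its highest among the sorted ones, and muscle fibre genes (*Acta1*, *Tnnc2*, *Mylpf*) were among the leading genes of an unnamed cluster there. The part of this muscle signal in the proximal levels was not tested.

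Outside muscle, the whole-limb classes differed in *Six4*, *Eya4*, *Eya2* and *Eya1*. Chondrocyte-like cells had 81.4 and 86.6 CPM of *Six4* and distal limb mesenchyme-like cells 33.4 and 32.4 CPM, and *Eya4* was at 5.06 and 5.45 CPM against 1.07 and 0.963 CPM. *Eya2* was at 0.203 and 0.355 CPM in the distal limb mesenchyme-like cells and at 0.810 and 1.45 CPM in the chondrocyte-like cells, well under the 11.4 CPM of sorted cells of the same day. Among the mesenchymal clusters *Eya1* was highest in those that *Pax1* led, both unnamed, with 4.38 and 7.04 CPM in one and 10.5 and 7.00 CPM in the other, against 0.607 and 0.182 CPM in chondrocyte-like cells. Endothelial-like cells had 5.75 and 6.60 CPM of it on 4 UMIs in each library.

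The wider network was read from fixed lists, the first holding Pax and Dach genes with *Six3*, *Six6* and *Sobp*. Of its 9 genes, 6 passed the filter on low counts at E11.5, and the counts below stand beside 26.8% of all genes higher and 26.6% lower. Of these, *Sobp* was higher in sorted mesenchymal cells (log2 0.51), and *Pax1* (−4.45), *Dach1* (−2.01), *Pax3* (−1.75) and *Pax9* (−0.83) were lower, with *Dach2* not called (adjusted p = 0.0566). Among 6 Groucho genes *Tle2* (log2 1.25) and *Aes* (0.66) were higher and *Tle4* (−0.66) was lower, shares near those of all genes. Of 7 early muscle genes none was called higher and 5 were called lower, among them *Lbx1* (−1.67) and *Myod1* (−3.78). *Myf5* and *Myog* had no UMI in the sorted cells summed and *Myod1* had 2. *Myf5*, *Myog* and *Myod1* passed the filter only through the whole limb, so no higher call was open to them and their calls are not read as a result. These clusters exclude myogenic-like cells on both sides, and with cells holding a UMI of *Pax3*, *Lbx1*, *Myf5*, *Myod1* or *Myog* left out as well, a choice made after seeing the data, the same number of members was called. Over the time course to the E16.5 proximal library, *Dach1*, *Dach2*, *Pax3*, *Tle1*, *Tle3* and *Tle4* were called lower, and *Met* (3.66-fold), *Myog* (6.87-fold) and *Mef2c* (4.78-fold) higher, where 29.3% of all genes were called lower and 17.9% higher, so nothing particular to these lists is read from the counts.

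By E16.5 the levels of most members differed widely between classes, and tenocyte-like cells were high for several of them. Of the 7 named classes with at least 50 cells in each segment, tenocyte-like cells had the highest level of *Six4*, *Eya1*, *Eya2* and *Eya4* in both segments, which makes 4 of the 7 members with the same highest class in both. That number was 3 to 5 under the alternative clusterings and cell sets, but at a clustering resolution of 2 the classes changed, and tenocyte-like cells were then highest in both segments for *Eya2* alone. The share of all genes with the same highest class in both segments was not computed. The number of members is therefore a description and is not read as high or low. With the classes found in a single segment counted too, proximal *Eya1* was highest in perichondrial-like and distal *Six4* in distal limb mesenchyme-like cells. Proximal tenocyte-like cells (724 cells, marked by *Scx* and *Tnmd*) had 38.6 CPM of *Eya2*, 24.6 CPM of *Six4*, 20.9 CPM of *Six2*, 8.40 CPM of *Eya4* and 4.54 CPM of *Eya1*. The distal ones (420 cells) had 19.1 CPM of *Eya2*, 28.2 CPM of *Six4*, 15.6 CPM of *Six2*, 12.2 CPM of *Eya4* and 15.0 CPM of *Eya1*. *Six5* (9.49 and 11 CPM) and *Eya3* (5.80 and 8.83 CPM) stood out less in these cells.

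*Six2* was highest in proximal chondrocyte-like cells instead. The 980 cells of this class had 77.3 CPM (73.3 to 81.5), 57.7% of the *Six2* UMIs of that library in 7.67% of all its UMIs. At 3000 UMIs per cell, 20.4% of them had a *Six2* UMI, against 1.06% of epithelial-like cells, a class in which the gene would not be looked for. In chondrocyte-like cells *Six4* was at 16 CPM, *Six5* at 9.55 CPM, *Eya2* at 5.44 CPM, *Eya4* at 3.05 CPM and *Eya1* at 1.33 CPM, so that no Eya-family gene approached the *Six2* level there.

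A proximal perichondrial-like cluster of 387 cells, led by *Alpl*, *Otor*, *Dlx5* and *Dlx6*, of which *Alpl* and the Dlx genes are also known from bone-forming cells, had the highest *Eya1* of that segment, 15.2 CPM, together with 34.4 CPM of *Eya2*, 19.4 CPM of *Six4*, 12 CPM of *Six2* and 13.2 CPM of *Six5*. Its distal counterpart held 5 cells and gave no level. In the distal segment the distal limb mesenchyme-like cells (1492 cells) had the most *Six4*, 32.1 CPM, and 12.4 CPM of *Six5*, 7.53 CPM of *Eya2*, 5.22 CPM of *Eya4* and 4.95 CPM of *Eya1*. Both of these classes thus held several members at once, in differing proportions.

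Mitotic-like cells of E16.5 lay nearer the library means, with 10.1 and 4.70 CPM of *Six2* and 12 and 5.24 CPM of *Eya2* (proximal and distal). Dermal fibroblast-like cells had 0.655 and 0.546 CPM of *Six2* and 0.164 and 0.447 CPM of *Six4* (proximal and distal), levels that rest on 2 to 11 UMIs, yet 5.32 and 10.5 CPM of *Six5* and 5.89 and 7.64 CPM of *Eya3*. Pericyte-like cells had 12.2 CPM of *Eya2* proximally, near the library mean, and 2.81 CPM distally. Epithelial-like cells, 939 in the proximal and 66 in the distal library, held 15.3% and 1.49% of the UMIs of those libraries. The study took small epithelial clusters of its E16.5 data as contaminating and removed them, while such cells are kept here. Proximally, epithelial-like cells had 1.06 CPM of *Six5* and 0.0836 CPM of *Eya4*, the lowest levels of those genes in that library. The skin classes thus had little of most members, with *Eya3* and *Six5* the only members at 5 CPM or more in the dermal fibroblast-like cells of both segments. This was not particular to skin. Fibroblast-like cells had 1.07 and 2.78 CPM of *Six2*, 2.82 and 2.78 CPM of *Eya2* and 0.376 and 0.927 CPM of *Eya4* (proximal and distal). Their *Six5* was at 6.15 and 6.99 CPM and their *Eya3* at 4.95 and 6.92 CPM, while *Six4* was at 3.01 and 9.84 CPM.

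**Figure D4:**
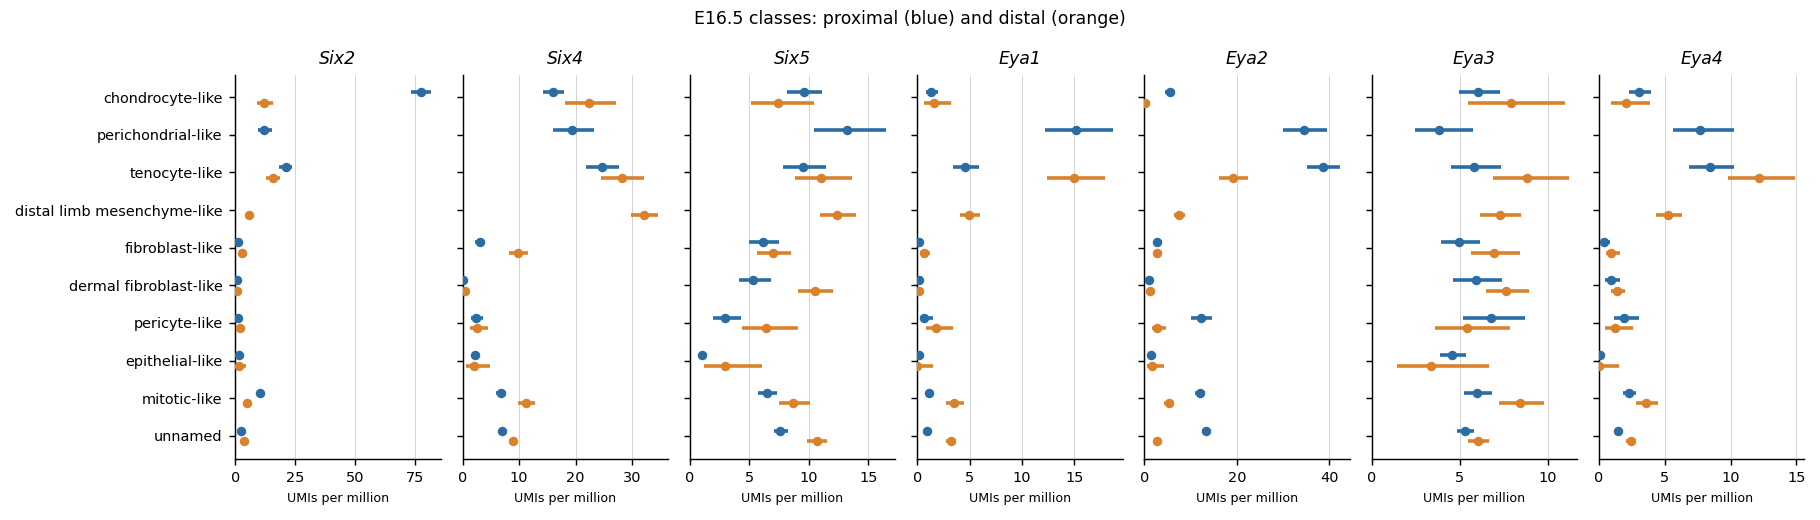
CPM of the 7 members by cell class at E16.5, proximal segment in blue and distal in orange, with 95% Poisson intervals. Tenocyte-like cells lie high for *Six4*, *Eya1*, *Eya2* and *Eya4* in both segments, and *Six2* peaks at 77.3 CPM in proximal chondrocyte-like cells.

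The segments of E16.5 were compared to ask whether position along the limb goes with Six- and Eya-family levels. In all cells together, *Eya1* was 2.49-fold higher distally (2.16 to 2.87), *Eya2* 2.61-fold lower (2.39 to 2.84) and *Six2* 2.36-fold lower (2.17 to 2.57). The other members were 1.28- to 1.69-fold higher distally and below the 2-fold limit. Of 13463 genes, 7.56% were called higher and 6.66% lower, and the median log2 ratio was 0.64 for the members and 0.14 for all genes. The segments also differed in their cells, with 8.45% epithelial-like and 8.82% chondrocyte-like cells proximally against 0.781% and 2.60% distally. Without these classes the *Six2* difference shrank to −0.35 on the log2 scale from −1.24, while that of *Eya2* was −1.62.

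Within classes, *Eya2* was lower distally in 4 of the 7 named classes and higher in none. The chondrocyte-like cells of the distal library had 1 UMI of *Eya2* (0.225 CPM), a ratio of 0.041 to the proximal ones, whose level was 24.2-fold higher with an interval of 4.24 to 964. Different clusters held most of the chondrocyte-like class in the segments, a proximal one led by *Matn1* and *Epyc* and a distal one led by *Cytl1* and *Cmtm5*. *Eya2* was also lower in pericyte-like (4.34-fold, 2.48 to 8.20), mitotic-like (2.29-fold, 1.85 to 2.85) and tenocyte-like cells (2.03-fold, 1.68 to 2.46). The unnamed cells had the same direction (4.80-fold, 4.09 to 5.66, on 1155 proximal and 174 distal UMIs). The share of all genes called lower was 6.45% in chondrocyte-like, 3.65% in pericyte-like, 4.6% in mitotic-like and 4.08% in tenocyte-like cells, and 7.04% in fibroblast-like, 3.72% in dermal fibroblast-like, 3.54% in epithelial-like and 4.57% in unnamed cells. In fibroblast-like cells, by contrast, the levels of 2.82 and 2.78 CPM did not differ beyond counting error (ratio 0.985, 0.625 to 1.55), although different clusters held this class in each segment, one led by *Wfdc18* and *Ly6a* proximally and one led by *Cldn3* and *Olfml2a* distally. The *Eya2* ratio was 1.32 (0.62 to 2.99) in dermal fibroblast-like and 1.12 (0.29 to 3.03) in epithelial-like cells, neither of them called.

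*Eya1* was higher distally within tenocyte-like (3.30-fold, 2.37 to 4.64) and mitotic-like cells (3.11-fold, 2.11 to 4.62), where 5% and 7.06% of genes were called higher, and within the unnamed cells (3.49-fold, 2.68 to 4.58, against 7.56% of genes). The other named classes had too few *Eya1* UMIs for a call or were not called. With every cell thinned to 3000 UMIs, the library-wide *Eya1* ratio fell short of 2-fold (log2 0.77).

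*Six2* differed by class in its direction. In chondrocyte-like cells the proximal library had 1392 UMIs and the distal one 54, at 77.3 and 12.2 CPM, a ratio of 0.157 (0.12 to 0.21, against 6.45% of genes lower). This ratio too is between different clusters of the class. In mitotic-like cells the ratio was 0.464 (0.368 to 0.582), and in tenocyte-like cells the proximal level was 1.34-fold higher (1.07 to 1.68) and not called. In fibroblast-like cells the distal level was the higher one, 2.78 CPM on 39 UMIs against 1.07 CPM on 17 UMIs, a ratio of 2.61 (1.44 to 4.92), in a class where 11.9% of genes were called higher. *Six4* in fibroblast-like cells was at 9.84 CPM distally against 3.01 CPM proximally (3.27-fold, 2.34 to 4.64). *Six5* was called higher distally on few UMIs, 26 proximal and 32 distal in pericyte-like cells (2.19-fold, 1.26 to 3.82) and 38 and 7 in epithelial-like cells (2.78-fold, 1.05 to 6.30). *Eya3* and *Eya4* were called in no named class. The share of all genes called higher distally was 5.68% in pericyte-like, 10.6% in epithelial-like, 8.48% in chondrocyte-like and 9.13% in dermal fibroblast-like cells.

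**Figure D5:**
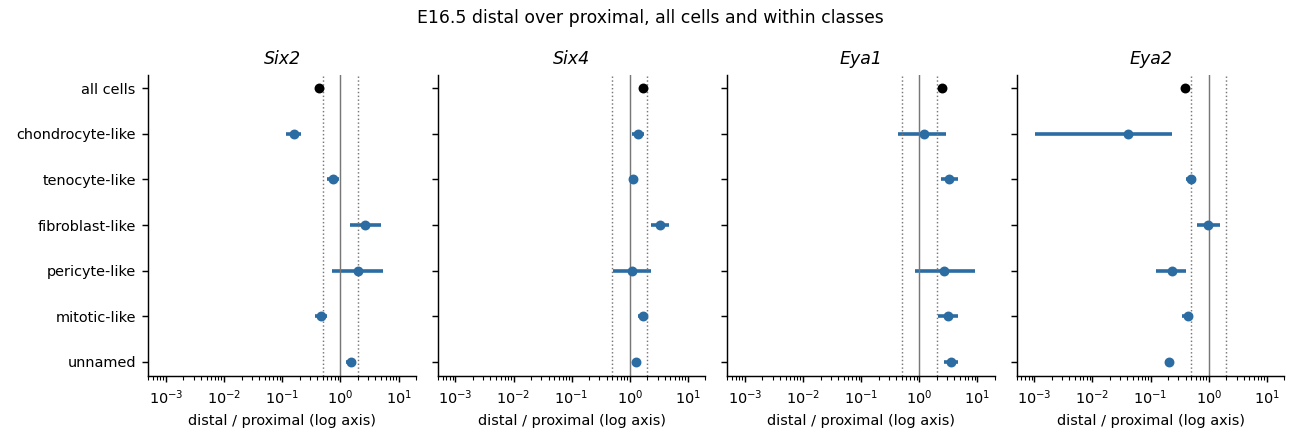
Ratio of the distal to the proximal E16.5 level on a log axis for *Six2*, *Six4*, *Eya1* and *Eya2*, with 95% exact conditional intervals. Ratios are for all cells and for chondrocyte-, tenocyte-, fibroblast-, pericyte- and mitotic-like and unnamed cells, where the gene reached 1 CPM in either segment. Dermal fibroblast-like and epithelial-like cells are not drawn. *Eya2* lies left of 1 in chondrocyte-, pericyte-, mitotic- and tenocyte-like cells, while *Six2* lies at 0.157 in chondrocyte-like and at 2.61 in fibroblast-like cells.

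Since Six- and Eya-family proteins act as pairs, cells with UMIs of 2 members were counted in the 6 sorted libraries after thinning every cell to 3000 UMIs. Of 21 pairs, 12 had an expected overlap of at least 5 cells in a library, and none exceeded 1.5 times the overlap expected from its single shares in every such library. Other gene pairs were not counted, and overlaps near 5 cells carry wide counting error. The count is therefore not read as a result about pairing. The ratios of observed to expected overlap ran from 0.518 to 1.95, the highest for *Six2* with *Six4* in the E16.5 proximal library, whose lowest elsewhere was 0.741. Within single classes that pair ran from 0.623 (E13.5 mitotic-like) to 1.82 (E14.5 unnamed), with 0.929 in the chondrocyte-like cells of the E16.5 proximal library. Without thinning, *Eya1* with *Eya4* met the limit, at 1.84 to 3.90 times in 3 libraries. At this depth a cell without a UMI of a gene cannot be taken as a cell without its transcript.

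Across 43 units, each 1 class in 1 library, the levels of *Six4* ran with those of *Eya4* (Pearson r = 0.73 on log2(CPM + 1)) and *Eya3* (0.72), and those of *Six2* and *Eya4* each with those of *Eya2* (0.61 in both). These units share libraries, chemistry and depth, so the values describe and do not test. Among 9928 genes at 20 CPM or more in a unit, the patterns most like that of *Six2* were those of *Foxp4* (0.75), *Stk26* (0.74) and *Vwc2* (0.70), and most like that of *Six4* those of *Slc38a1* (0.94), *Adgra3* (0.87) and *Kif5c* (0.87). *Eya1* went with *Synpo2l* (0.71), *Arpp21* (0.70) and *Lbx1* (0.70), the last a homeobox gene of migrating muscle precursors, and *Eya2* with *Meox1* (0.82), a homeobox gene of somites, and *Tmem86a* (0.74). Of the genes reported here, *Eya4* went with *2810442N19Rik* and *Sept6* (0.79 in both). *Six5* went with *Tmco3*, *Ift46* and *Tceal1* (0.85 each), and *Eya3* with *Sart3* (0.94), *Wbp11* (0.93) and *Gtf3c2* (0.92), genes of general RNA handling and transcription.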

How the data were processed

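Single-cell RNA-seq libraries were made by the authors with droplet kits (10x Genomics), and the deposited matrices hold UMI counts per gene and barcode, not normalized. Per the file headers and methods, the sorted libraries were aligned with Cell Ranger 3.0.2 (6.0.1 for the distal one) to a mouse mm10 reference with 3 added sequences; the whole-limb headers name no version, and the study's reporting summary names a single other version for its single-cell data. Exonic position of UMIs is not recorded in such matrices, so each member is 1 value per cell. Gene positions came from GENCODE vM21.

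Barcodes with at least 3000 UMIs and at most 10% mitochondrial UMIs were kept. UMIs were summed per library or class and given as CPM (per 1000000 UMIs) with 95% exact Poisson intervals; ratios have exact conditional binomial intervals. Both cover counting error only. Cells were clustered with scanpy 1.11.5 and leidenalg 0.10.2 (2000 variable genes, 50 components, 25 neighbours, resolution 1), in 3 separate sets (sorted libraries through E16.5 proximal, both segments of E16.5, and all of E11.5). A cluster took 1 of 17 class names from at least 3 markers, at least 50% of its list, with a marker among its 10 leading genes unless 75% of the list was present; clusters with leading genes of another class stayed unnamed. The share limits were added after the clusters had been seen. Scrublet's automatic threshold marked too few cells, so its highest scores were taken as doublets at the nominal rate of the kit, which grows by 0.8% with every 1000 cells; they were kept in the main values and left out as an alternative.

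The sorted and whole E11.5 libraries were compared with edgeR 4.0.16 (quasi-likelihood, TMM, filterByExpr, R 4.3.3) on summed counts, with DESeq2 1.42.0 and limma 3.58.1 as alternatives. In simulated data for this comparison over 15015 genes, 100 of 100 genes changed 2-fold were called, with 9 false calls among 14585 unchanged genes. The simulated spread was the one fitted to these libraries, and the changed genes were drawn only from those at 5 CPM or more on average. Members below that level, such as *Six2* and *Eya1*, are not covered by this result. All other comparisons have 1 library a side and no test. Named were all 7 members, 3 fixed lists of partner genes, and the 3 genes most correlated with each member; some of these are not reported here. The members and lists were chosen with earlier results of these data known. Other processing choices are given at the end.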

Additional observations from a re-analysis of the deposited data

Results flagged for a closer look

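*Six2* at E16.5 differed in direction between cell classes. Its distal-to-proximal ratio was 0.157 in chondrocyte-like and 0.464 in mitotic-like cells, and 2.61 in fibroblast-like cells. The difference between these ratios was not tested, since each segment has 1 library. The fibroblast-like ratio rests on 17 proximal and 39 distal UMIs, and in chondrocyte-like and fibroblast-like cells different clusters held the proximal and the distal cells.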

How the results depend on the processing

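Of 66 recomputed counts of members, 55 stayed within 1.5 times the reported count and 11 moved. At E11.5, 1 member was lower (2 in the report) under DESeq2, limma-voom, no filter on low counts, and thinning to 3000 UMIs. From E11.5 to the E16.5 proximal library, 1 was higher (2 in the report) with a minimum of 5 CPM. Shorter intervals, chosen after seeing the data, are other comparisons rather than processing choices. Of the members, 1 was lower from E11.5 to E13.5 (4.91% of all genes) and 0 higher from E14.5 to E16.5 proximal (9.39%). Over the full interval the report has 4 lower (29.3% of all genes) and 2 higher (17.9%). Distally, 1 was lower outside epithelial- and chondrocyte-like cells (2 in the report), and 0 higher with thinning or with a minimum of 5 CPM (1 in the report). Among pairs, 1 met the limit unthinned and 0 thinned.

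The log2 difference of *Six4* at E11.5, 0.00, became −0.0090 under DESeq2 and with its size factors in edgeR, −0.0071 without a filter, −0.014 without cells holding a muscle gene UMI, and −0.23 without *Hoxa13* and *Hoxd13* cells; leaving out a whole-limb replicate gave −0.072 to 0.095. *Eya3* became 0.0097 without *Hoxa13* and *Hoxd13* cells. The calls of *Eya4* and *Six2* were lost in several settings: adjusted p rose for *Eya4* to 0.218 (DESeq2), 0.0784 (no filter), 0.105 (all cells) and 0.104 (thinned), and for *Six2* to 0.0908 (limma-voom), 0.0945 (no filter) and 0.478 (thinned), while the *Six2* difference of −0.62 widened to −0.91 without *Hoxa13* and *Hoxd13* cells and to −1.66 in all cells. *Eya2* (log2 1.65 to 3.45), *Eya1* (−3.61 to −2.21) and *Six5* (0.73 to 0.79) stayed called in each tested setting. Over all genes DESeq2 called 2023 higher and 2864 lower and the fit without a filter 2081 and 2241, against 4024 and 4001. The causes were not tested. No paired analysis was possible because the sorted E11.5 library has no second replicate and every other group but the whole limb has 1 library.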
